A study of Mus musculus with 6 samples.

Results

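The 3 arrays described here hold total RNA of a vector-transfected clone of RAW264.7, an established mouse macrophage line, and they are 3 of the 6 arrays of the series. They were taken by their titles, in which they carry the numbers 1, 2 and 3. An empty pEF6/V5-His expression vector had been introduced by lipofection, blasticidin served for selection, and the labels give clone 3 for all 3 arrays. RNA was isolated after 48 h of culture in DMEM with 10% FCS. The other 3 arrays hold an Ms4a8a-transfected RAW264.7 clone, clone 8, which was grown and selected in the same way. Each arm is 1 clone, so a level read here belongs to this clone and may differ from that of the parental line. Whether the 3 arrays stand for 3 cultures is not stated, and their spread may be technical.

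RAW264.7 was derived from a tumour that Abelson murine leukaemia virus had induced in a male mouse. The line keeps many traits of macrophages, which take up particles through Fc, complement and scavenger receptors, sense microbial products through Toll-like receptors and lectins, and secrete chemokines, lysozyme and proteases. Macrophages depend on colony-stimulating factor 1, which signals through the receptor encoded by Csf1r, and on the transcription factor PU.1, encoded by Spi1. Unlike most tissue macrophages the line divides continuously, and it can form osteoclasts when given the ligand of the receptor encoded by Tnfrsf11a.

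Levels are the deposited log2 values, with 1 probe set per gene, for 16387 named genes. The percentile of a gene is the share of the other named genes that read lower on the same array. Since probe sets differ in brightness for the same amount of RNA, a percentile places a signal on the array and does not rank transcripts by abundance. A gene is called high where its percentile was 90 or more on each of the 3 vector arrays, which held for 1246 genes, 7.60% of all. It is called near the floor where it read, on each array, below the 95th percentile of 127 genes of smell, taste, hair, lens and defensin families, a limit of 5.14, 5.25 and 5.01 on arrays 1, 2 and 3. That held for 6435 genes, 39.3% of all. A gene near the floor cannot be told from those families, which is not the same as absence of its transcript. A gene is called variable where its highest and lowest array differed by 1 log2 unit or more, a 2-fold difference, which held for 1727 genes, 10.5% of all.

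Vector array 3 stood apart from the other 2, and most of the variation described below lies between it and them. Between arrays 1 and 2 the median absolute difference was 0.10 log2 units and 35 genes (0.214%) lay 2-fold or more apart. Array 3 differed at this size from array 1 in 1458 genes (8.90%) and from array 2 in 1537 genes (9.38%). High and near-floor counts of a list that include array 3 are therefore given beside those of arrays 1 and 2 alone where they differ. On these 2 arrays 1571 of all genes were high and 6788 near the floor.

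The clone carried the signals of a macrophage. Lyz2, the secreted lysozyme of myeloid cells, read 13.90, 13.96 and 14.31 on arrays 1, 2 and 3. The growth factor receptor gene Csf1r read 12.84, 12.66 and 12.90, and Spi1 read 11.09, 11.11 and 11.56. These markers were high on every array and differed little between arrays. Adgre1, which encodes the F4/80 antigen of mature macrophages, read 6.76, 7.05 and 9.39, above the floor limit but below the 90th percentile on each array, and its array 3 value was the highest. Of 27 measured macrophage identity genes 12 were high, 44.4% against the 7.60% of all genes, and 12 were also high on arrays 1 and 2 alone. The 12 included the signalling adaptors Tyrobp (13.23, 12.98 and 13.51) and Fcer1g (12.31, 11.996 and 12.85), the lysosomal glycoprotein gene Cd68 (12.71, 12.76 and 13.17) and the endotoxin co-receptor gene Cd14 (12.38, 12.71 and 13.35). All 4 read above 11 on each array, and no member of these 4 was variable.

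Some receptors known from resident tissue macrophages lay at the other end, while others, such as Cx3cr1 and Trem2, did not. The efferocytosis receptor gene Mertk read 2.59, 2.62 and 2.24, and the haemoglobin scavenger receptor gene Cd163 read 2.50, 2.64 and 2.66. The scavenger receptor gene Marco read 3.38, 3.35 and 3.48, and the mannose receptor gene Mrc1 read 4.55, 4.29 and 4.74. These 4 were the macrophage identity genes near the floor on all 3 arrays, and on arrays 1 and 2 alone Aif1 joined them (4.93, 4.93 and 7.18).

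**Figure D1:**
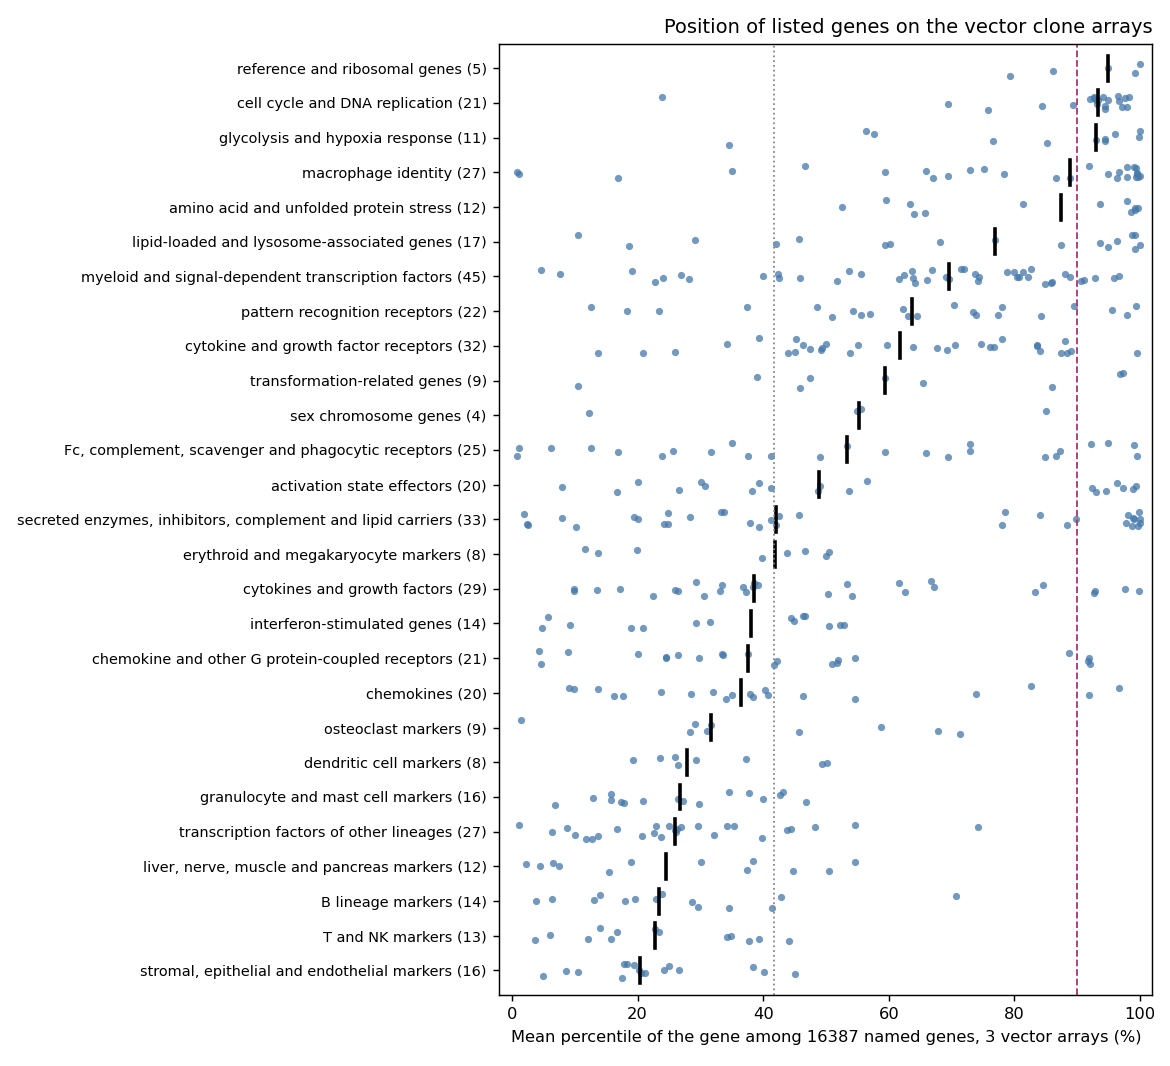
Each point is 1 gene, placed by its mean percentile among all named genes over the 3 vector arrays (horizontal axis, %), with genes grouped by list (vertical axis, number measured in parentheses). Black bars are list medians, the dashed line is the 90th percentile and the dotted line the mean position of the floor limit. The macrophage identity list has its median at 88.9 and the stromal, epithelial and endothelial list at 20.3.

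The brightest probe sets were those of translation, iron storage, the cytoskeleton, glycolysis and macrophage secretion. Of the 15 genes with the highest mean level, 6 encode ribosomal proteins of the small or large subunit and read from 13.75 (Rps14) to 14.57 (Rpl4) on average, the rest of them being Rpl26, Rps15, Rpl8 and Rps9. Fth1, the heavy chain of ferritin, averaged 14.36 ± 0.08 (SD, n = 3, as for all values after ±), and Cst3, the secreted cysteine protease inhibitor cystatin C, averaged 14.13 ± 0.09. Lyz2 (14.05 ± 0.22), the galactose-binding lectin gene Lgals3 (14.04 ± 0.13) and Spp1, which encodes the secreted phosphoprotein osteopontin (13.74 ± 0.10), were further secreted products among them. The calcium-binding protein gene S100a4, pyruvate kinase Pkm, beta-actin Actb and the translation factor gene Eif5a completed the 15. None of the 15 was variable, and the largest range among them was 0.52 for S100a4. They were chosen for a high mean on these same arrays, close to the highest value of 14.61, which limits the range they could have.

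Promoters are shown for 5 genes that hold the letters named below and lie at different places on this scale. Spp1, Fcgr4 and Pycard hold the letters GAGGAAGT on either strand, a core that PU.1 is known to bind, in the 250 bases before the annotated start. Mcm6 and Cdk1 hold TTTNGCGC, a core known for E2F factors of the cell cycle. These genes are not typical, since 2.18% of all 13080 matched promoters hold the first and 1.75% the second. Lyz2, Cd68, Mcm2 and Plk1, for example, hold neither. The sequences are RefSeq's for mouse assembly GRCm38.p6, written 5′ to 3′ on the strand of the gene with the matches in capitals, for the first listed start of each gene. In Mcm6, a subunit gene of the replicative helicase, the first pair of the 3 matches overlaps.

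Spp1 promoter, osteopontin, GRCm38.p6 chr5:104434861-104435110, plus strand, GAGGAAGT: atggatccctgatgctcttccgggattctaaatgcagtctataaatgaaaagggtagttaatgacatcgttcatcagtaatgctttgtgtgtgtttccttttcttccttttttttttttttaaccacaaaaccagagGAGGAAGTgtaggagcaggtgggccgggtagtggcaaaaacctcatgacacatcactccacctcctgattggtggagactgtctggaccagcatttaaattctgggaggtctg
Fcgr4 promoter, Fc receptor, GRCm38.p6 chr1:171018676-171018925, plus strand, GAGGAAGT: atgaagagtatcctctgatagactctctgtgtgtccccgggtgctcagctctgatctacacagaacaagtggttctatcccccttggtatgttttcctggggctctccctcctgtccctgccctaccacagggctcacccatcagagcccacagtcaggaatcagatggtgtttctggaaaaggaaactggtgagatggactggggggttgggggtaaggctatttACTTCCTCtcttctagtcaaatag
Pycard promoter, ASC adaptor, GRCm38.p6 chr7:127993868-127994117, minus strand, GAGGAAGT: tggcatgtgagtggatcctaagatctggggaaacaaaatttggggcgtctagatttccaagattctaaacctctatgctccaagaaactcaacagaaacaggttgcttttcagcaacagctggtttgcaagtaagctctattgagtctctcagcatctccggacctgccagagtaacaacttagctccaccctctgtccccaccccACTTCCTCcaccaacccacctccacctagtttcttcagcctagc
Mcm6 promoter, helicase subunit, GRCm38.p6 chr1:128359706-128359955, minus strand, TTTNGCGC: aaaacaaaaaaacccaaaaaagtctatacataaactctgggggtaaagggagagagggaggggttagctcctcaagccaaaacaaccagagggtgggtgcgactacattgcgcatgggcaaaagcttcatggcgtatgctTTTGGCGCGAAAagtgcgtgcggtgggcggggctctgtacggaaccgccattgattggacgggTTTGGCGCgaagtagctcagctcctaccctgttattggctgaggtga
Cdk1 promoter, mitotic kinase, GRCm38.p6 chr10:69352913-69353162, minus strand, TTTNGCGC: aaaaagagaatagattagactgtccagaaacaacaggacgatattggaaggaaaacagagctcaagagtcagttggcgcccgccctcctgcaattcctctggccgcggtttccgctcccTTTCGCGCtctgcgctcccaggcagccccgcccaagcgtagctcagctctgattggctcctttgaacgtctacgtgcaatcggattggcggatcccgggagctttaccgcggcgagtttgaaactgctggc

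Spp1 was high on all arrays (13.63, 13.79 and 13.82). Fcgr4, which encodes an activating Fc receptor, read 4.43, 4.88 and 8.42 and passed the floor limit on array 3 alone. Pycard, the inflammasome adaptor ASC that this line is known to lack, read 3.39, 3.57 and 3.45, near the floor on every array. The same 8 letters thus stood before a high, a variable and a near-floor gene. Mcm6 read 11.31, 11.39 and 9.89 and the mitotic kinase gene Cdk1 read 11.69, 11.48 and 10.59, both lowest on array 3. Counted from the start to the first base of the match, the nearest match was at -113 in Spp1, -24 in Fcgr4, -44 in Pycard, -47 in Mcm6 and -131 in Cdk1. A match is a description of these letters and not a site shown to be bound.

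Growth factor and cytokine receptor genes lay mostly in the middle of the scale. Of 32 measured, 1 was high, Csf1r, 3.12% against 7.60% of all genes, and 5 were near the floor, 15.6% against 39.3%. On array 3 alone 7 of the 32 were high, against 1640 of all 16387 genes. The gamma chain gene Il2rg, shared by several interleukin receptors, read 9.62, 9.40 and 10.71, and the tumour necrosis factor receptor gene Tnfrsf1a read 9.71, 9.39 and 10.11. Both receptor genes for interferon gamma were well above the limit, with 8.50, 8.34 and 8.89 for Ifngr1 and 9.36, 9.39 and 8.98 for Ifngr2. Tnfrsf11a, whose product receives the osteoclast signal RANKL, read 8.25, 8.39 and 6.78, lower on array 3. The near-floor members were Il7r (3.36, 3.31 and 3.09) and Kit (3.49, 3.75 and 3.58), receptors of lymphoid and early progenitor cells, with Igf1r, Il1r2 and Il3ra. The receptor genes for the other colony-stimulating factors varied, and Csf3r read 7.12, 7.002 and 10.36 and Csf2rb read 5.28, 4.68 and 7.35, both highest on array 3.

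All 4 measured receptor genes for CC chemokines were near the floor. They belong to a list of chemokine and other G protein-coupled receptors with 21 measured genes. Of these 21, 1 was high, 4.76% against 7.60% of all genes, and 10 were near the floor, 47.6% against 39.3%, or 13 on arrays 1 and 2 alone. The high one was Gpr183, a receptor for oxysterols (10.29, 10.14 and 10.36). The fractalkine receptor gene Cx3cr1 read 10.44, 9.61 and 10.88 and the nucleotide receptor gene P2ry6 read 10.07, 9.87 and 10.87, each below the 90th percentile on 1 array at least. Ccr1 (3.67, 3.71 and 3.32), Ccr2 (3.95, 3.69 and 3.78), Ccr3 (3.15, 2.87 and 3.08) and Ccr7 (4.21, 3.82 and 3.75) were the near-floor CC receptor genes, and near the floor were also the formyl peptide receptor genes Fpr1 and Fpr2. Cxcr4, the receptor for the chemokine encoded by Cxcl12, read 3.91, 3.70 and 8.59. Its signal was near the floor on arrays 1 and 2 and well above the limit on array 3.

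Among pattern recognition genes the high ones encode surface sensors of microbial products. Of 22 measured, 3 were high, namely Cd14, Clec4d and Tlr2, 13.6% against 7.60% of all genes, and 4 were near the floor, 18.2% against 39.3%. Clec4d, a lectin receptor for mycobacterial glycolipid, read 11.67, 11.99 and 11.43, and Tlr2, the receptor for lipopeptides, read 10.72, 10.45 and 12.31. Tlr4, the endotoxin receptor, read 8.07, 8.08 and 9.01, with its partner Ly96 at 7.32, 7.38 and 7.56. Of the endosomal receptors for nucleic acids, Tlr7 read 9.57, 9.58 and 10.80 and Tlr13 read 8.37, 7.89 and 10.33, while Tlr3 (2.95, 3.12 and 3.56) and Tlr8 (4.78, 4.96 and 4.45) were near the floor. Tlr9, the receptor for unmethylated DNA, read 6.16, 6.30 and 5.93, above the floor limit on each array. The cytosolic DNA sensor gene Cgas read 8.86, 8.64 and 8.54 and its effector Sting1 read 8.25, 7.76 and 8.28. The inflammasome sensor gene Nlrp3 read 7.76, 7.96 and 9.35, while its adaptor Pycard was near the floor. The remaining near-floor member was the lectin gene Clec4n (3.54, 3.77 and 3.93).

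The Fc receptor genes differed from each other and between arrays. Fcgr1, the high-affinity receptor for immunoglobulin G, read 8.24, 8.41 and 8.29, a range of 0.17 log2 units. Fcgr3, a low-affinity activating receptor, read 5.93, 6.14 and 11.60, and the inhibitory receptor gene Fcgr2b read 7.35, 7.27 and 10.80. These 2 and Fcgr4 had array 3 far above arrays 1 and 2. Of 25 Fc, complement, scavenger and phagocytic receptor genes 4 were high, 16% against 7.60% of all genes. Near the floor were 10, 40.0% against 39.3%, or 12 on arrays 1 and 2 alone. Itgb2, the beta chain of the leukocyte integrins, read 10.50, 10.52 and 11.74 and its partner Itgam, the alpha chain of complement receptor 3, read 7.57, 7.02 and 9.36. The lipoprotein receptor gene Scarb1 read 10.42, 10.22 and 10.20 and the class A scavenger receptor gene Msr1 read 9.45, 9.83 and 9.40. The TAM family receptor genes Axl (3.60, 3.81 and 4.25), Tyro3 (3.60, 3.67 and 4.07) and Mertk were all near the floor, as was Timd4, a receptor for phosphatidylserine (3.54, 3.06 and 3.02).

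Of 45 myeloid and signal-dependent transcription factor genes 35 lay between the high genes and the floor, against 8706 of all 16387 genes. In this list 3 were high, 6.67% against 7.60% of all genes. They were Spi1, the oxidative stress factor gene Nfe2l2 (10.94, 10.69 and 11.44) and Nfkb1 (10.38, 9.98 and 10.05). Near the floor were 7, 15.6% against 39.3%, or 9 on arrays 1 and 2 alone. On array 3 alone 9 of the 45 were high, against 1640 of all 16387 genes. Irf5 (9.82, 9.85 and 9.80), Stat6 (9.66, 9.73 and 9.79) and Fli1 (9.50, 9.26 and 9.69) had mean percentiles of 88.9, 88.1 and 86.0 and were not variable. Irf8, a factor of monocyte development, read 9.11, 8.86 and 10.41, and Cebpb, a factor of macrophage activation, read 9.73, 9.79 and 10.85. Both were highest on array 3. The near-floor members were Gata6 and Spic, known for peritoneal and splenic red pulp macrophages, Pparg (3.71, 3.84 and 3.80), Maf (3.59, 3.53 and 3.42), Irf4, Gfi1 and Tfec (3.87, 3.44 and 3.84). The lipid sensor gene Nr1h3 read 4.98, 5.28 and 5.33, close to the floor limit.

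Immediate-early and AP-1 genes were among the variable factors. In all, 16 of the 45 factors were variable, 35.6% against the 10.5% of all genes, and 1, Id3, was variable between arrays 1 and 2 alone. Fos read 10.23, 9.68 and 12.27, Junb read 8.34, 8.34 and 10.75 and Atf3 read 7.83, 7.05 and 9.67. Egr2 read 4.21, 4.40 and 7.39, near the floor on the first arrays and above it on array 3. Id3, an inhibitor of basic helix-loop-helix factors, was lowest on array 3 and read 7.81, 9.04 and 5.22. Myc, which drives growth in many tumours, read 5.77, 4.97 and 5.99.

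Master factors of other lineages were mostly near the floor. Of 27 measured, 22 were near the floor, 81.5% against the 39.3% of all genes, and 22 also on arrays 1 and 2 alone. They included Pax5 (3.96, 4.33 and 4.08) and Ebf1 (2.96, 2.88 and 2.92) of B cells, Gata3 and Tcf7 of T cells, and Pou5f1 and Sox2 of pluripotent cells. The members above the limit on at least 1 array were Tal1, Pax6, Nkx2-5, Sox10 and Klf1. Tal1, a factor of blood stem cells and the erythroid lineage, read 8.42, 8.57 and 8.27, and Pax6, known for eye and brain, read 6.93, 6.80 and 5.87. Whether these probe sets read their own transcript was not tested.

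Most chemokine genes were near the floor, and those that were not included CC chemokines with large spread. Of 20 chemokine genes 1 was high, Ccl9 (10.82, 10.92 and 12.43), a share of 5% close to the 7.60% of all genes. Near the floor were 13, 65.0% against 39.3% of all genes, or 14 on arrays 1 and 2 alone. Ccl3 and Ccl4, which attract monocytes and lymphocytes, read 9.44, 9.99 and 13.16 and 7.18, 7.58 and 11.18. Cxcl2, a neutrophil attractant, read 3.57, 3.37 and 8.76. In each of these genes array 3 read above arrays 1 and 2, and in Cxcl2 it was the only array above the floor limit. Ccl2, the monocyte attractant, read 6.42, 6.77 and 6.42 with little spread. Ccl5, Ccl17, Ccl22, Cxcl1, Cxcl9 and Cxcl12 were near the floor on all 3 arrays, with 5.10, 4.94 and 4.95 for Ccl5 and 3.52, 3.50 and 3.31 for Cxcl9.

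Cytokine genes ranged from high to near the floor. Of 29 cytokine and growth factor genes 3 were high, a share of 10.3% close to the 7.60% of all genes. They were Spp1, the granulin precursor gene Grn (11.37, 11.08 and 13.09) and Tgfb1 (10.14, 10.15 and 10.88). Near the floor were 12, a share of 41.4% close to the 39.3% of all genes, or 17 on arrays 1 and 2 alone. Tnf read 8.83, 8.72 and 11.23, and Tnfsf9, the ligand of the costimulatory receptor 4-1BB, read 10.11, 9.77 and 12.42. The inflammasome substrate gene Il18 read 8.99, 9.24 and 9.41, whereas Il1b read 4.53, 4.45 and 5.08 and Il1a read 3.61, 3.94 and 4.22. Of these values only that of Il1b on array 3, beside all 3 of Il18, passed the floor limit. Il6 (3.12, 3.10 and 3.02), Il12b (3.03, 3.04 and 3.16), Il10 (3.47, 3.47 and 3.32) and Ifnb1 (3.96, 3.83 and 3.87) were near the floor on all arrays. Csf1, the growth factor for the receptor this clone reads high, was itself near the floor (4.80, 4.80 and 4.87). Igf1 read 7.94, 7.29 and 6.85 and the angiogenic factor gene Vegfa read 6.97, 7.23 and 8.95, with array 3 lowest in the first and highest in the second.

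Lysosomal proteases made up 5 of the 9 high genes among the secreted enzymes and carriers, and several products typical of tissue macrophages were near the floor. Of 33 genes 15 were near the floor, 45.5% against 39.3% of all genes, or 18 on arrays 1 and 2 alone. The 9 high ones were 27.3% against 7.60%, and 10 were high on arrays 1 and 2 alone. The cathepsin genes Ctsl (13.25, 13.37 and 13.69), Ctss (13.05, 12.73 and 13.60), Ctsz (12.10, 12.12 and 13.002) and Ctsd (11.32, 11.27 and 12.81) were high, as were the asparaginyl protease gene Lgmn (11.96, 11.79 and 13.37) and the sphingolipid activator gene Psap (11.51, 11.52 and 12.66). Lpl, which hydrolyses triglycerides of lipoproteins, read 13.002, 12.80 and 11.33, lower on array 3. The complement genes C1qa (3.88, 3.61 and 3.99), C1qb (2.65, 2.75 and 2.71) and C1qc (3.56, 3.66 and 3.46) were near the floor. Among the matrix metalloproteinase genes Mmp2, Mmp8, Mmp9, Mmp12, Mmp13 and Mmp14 were all near the floor. Apoe, the lipid carrier of macrophages, read 5.0, 5.08 and 5.41, below the floor limit on arrays 1 and 2. Cfp, the complement regulator properdin, read 10.02, 10.71 and 6.06, and Slpi, a protease inhibitor, read 9.60, 8.94 and 11.69. Array 3 was lowest in Cfp and highest in Slpi.

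Of 20 genes of activation 6 were high, 30% against 7.60% of all genes. Near the floor were 6, 30% against 39.3%. On arrays 1 and 2 alone 9 were near the floor, against 6788 of all 16387 genes. Variable were 10, 50% against 10.5%, and none of them between arrays 1 and 2 alone. Nos2, the nitric oxide synthase of classical activation, read 4.94, 4.92 and 4.54, and Arg1, the arginase of alternative activation, read 3.03, 3.05 and 2.91, both near the floor. The alternative activation products Retnla (3.68, 3.96 and 3.84) and Chil3 (2.66, 2.60 and 2.74) were near the floor too. By contrast the NADPH oxidase genes Cybb (11.24, 10.44 and 12.32) and Ncf1 (11.44, 11.35 and 11.49) and the haem oxygenase gene Hmox1 (9.97, 10.82 and 10.25) were high. The class I antigen presentation genes B2m (12.53, 12.24 and 13.40), H2-D1 (12.01, 11.95 and 13.31) and H2-K1 (10.35, 10.36 and 12.03) were high, with array 3 highest. Cd74, the class II invariant chain, read 10.05, 9.93 and 12.11, while the class II gene H2-Aa (4.32, 4.07 and 4.08) and the class II activator gene Ciita (4.14, 4.17 and 4.27) were near the floor. Of the other class II genes measured, H2-Eb1 read 5.95, 5.92 and 5.90, above the floor limit on each array, and H2-Ab1 read 3.41, 3.46 and 5.48, above it on array 3 alone.

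Markers of other blood and tissue cells were near the floor for the most part, against 39.3% of all genes. Among T and NK markers 12 of 13 were near the floor, with Cd3e the exception (5.33, 5.62 and 5.19). Of 16 stromal, epithelial and endothelial markers 15 were, with Kdr the exception (5.30, 5.67 and 5.48). Of 16 granulocyte and mast cell markers 13 were, or 14 on arrays 1 and 2 alone. The dendritic cell list had 6 of 8 near the floor, the list of liver, nerve, muscle and pancreas 9 of 12, and the erythroid and megakaryocyte list 4 of 8. No gene of these 6 lists was high, against 7.60% of all genes, a share that gives few high genes in lists this short. Of 14 B-lineage markers 11 were near the floor, against 39.3% of all genes, and none was high, against 7.60%. Bank1, a scaffold of B-cell receptor signalling, read 8.17, 8.19 and 8.02, however, at a mean percentile of 70.8. Blnk, an adaptor of the same pathway, read 5.25, 5.06 and 5.45 and the pre-B receptor gene Igll1 read 5.42, 4.90 and 5.04, both around the limit. The B-cell surface gene Cd79b (3.67, 3.58 and 4.08), the CD20 gene Ms4a1 (3.48, 3.48 and 3.42) and the recombinase gene Rag1 (2.74, 2.76 and 2.87) were near the floor.

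Osteoclast genes were split. Of 9 measured, 5 were near the floor, 55.6% against 39.3% of all genes, among them the calcitonin receptor gene Calcr (2.59, 2.65 and 2.67), the proton pump subunit gene Atp6v0d2 (4.08, 4.01 and 4.16) and Mmp9 (3.97, 4.13 and 4.02). The fusion genes Dcstamp (8.22, 8.23 and 8.07) and Ocstamp (8.33, 8.18 and 6.98) were above the limit. The gene of tartrate-resistant acid phosphatase, Acp5, read 5.49, 6.92 and 8.32, and its array 1 and 2 values also lay more than 1 log2 unit apart.

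Sex chromosome genes and genes of transformation gave a further check on the line. The Y-linked genes Eif2s3y (9.20, 8.95 and 10.16), Uty (6.84, 6.79 and 6.31) and Kdm5d (6.69, 6.53 and 6.52) were above the floor limit on every array, and Xist, which silences an X chromosome in female cells, read 3.23, 3.26 and 3.07, near the floor. The tumour suppressor locus Cdkn2a read 3.17, 3.19 and 2.97, near the floor, while Cdkn1a, a cell cycle inhibitor induced by p53, was high (11.29, 11.19 and 12.08). The survival gene Mcl1 was high (10.98, 10.93 and 12.20), and Bcl2 read 5.61, 5.74 and 5.90. Abl1, the cellular relative of the viral oncogene, read 7.14, 7.02 and 7.005.

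Several genes of stress responses and glycolysis were high on all arrays. Of 12 amino acid and unfolded protein stress genes 6 were high, 50% against 7.60% of all genes, and none was near the floor, against 39.3%. The high ones included the endoplasmic reticulum chaperone gene Hspa5 (13.24, 13.35 and 12.55), Atf4 (11.81, 11.89 and 12.54) and the asparagine synthetase gene Asns (11.52, 11.57 and 11.998). Of 11 glycolysis and hypoxia genes 6 were high, 54.55% against 7.60%. None was near the floor on all 3 arrays, against 39.3%, and 1 was on arrays 1 and 2 alone. Pkm read 14.14, 14.12 and 13.96 and the aldolase gene Aldoa read 13.35, 13.23 and 13.58. Of 14 interferon-stimulated genes none was high, against 7.60% of all genes. Near the floor were 6, a share of 42.9% close to the 39.3% of all genes, or 7 on arrays 1 and 2 alone. The 6 included Ifit1 (3.57, 3.27 and 3.69), Rsad2 (4.28, 4.19 and 4.29) and Mx1 (3.69, 3.64 and 3.48).

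Of the 1727 variable genes, array 3 was the one farthest from the other pair in 1675, against 9960 of all 16387 genes. It read above arrays 1 and 2 in 967 of the 1675 and below them in 708. The share of variable genes was 10.5% among the genes called high, 0.793% among those near the floor and 17.7% among the 8706 in between. Part of this difference is built in, since a gene that crosses a limit between arrays falls in between by definition. The Ms4a8a arrays did not enter the choice of these genes. In the Ms4a8a clone, array 3 lay on the same side of its arrays 1 and 2 for 1656 of the 1675 genes, 98.9%, against 74.6% of all named genes. Over all named genes the deviation of array 3 had a Pearson correlation of 0.865 between the clones, a description across genes, which are not independent, from arrays that share a number and may share a culture day or a processing run. What the numbers stand for is not given in the labels.

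**Figure D2:**
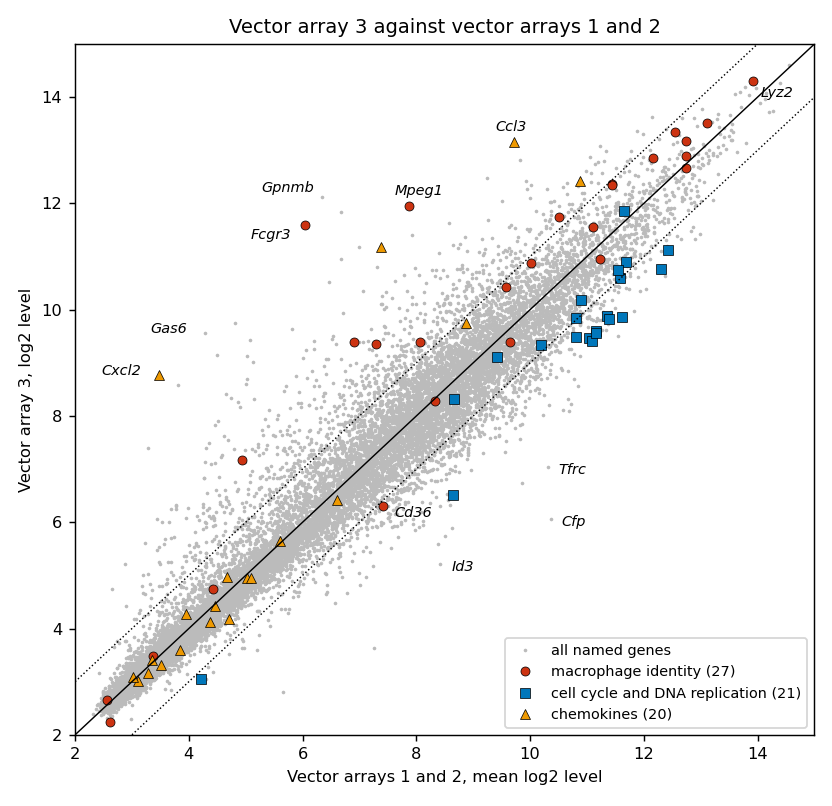
Each point is 1 named gene, with its mean log2 level on vector arrays 1 and 2 on the horizontal axis and its log2 level on vector array 3 on the vertical axis. The solid line marks equal levels and the dotted lines a 2-fold difference. Red circles are macrophage identity genes, blue squares cell cycle and DNA replication genes, most of which lie below the solid line, and orange triangles chemokine genes.

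The genes of largest range included phagocyte and lysosome genes that read lower on arrays 1 and 2. Among the 30 genes of largest range with a mean percentile of 50 or more, array 3 was highest in 27 and lowest in 3. These 30 were chosen for their range, so the sizes are a description. Gpnmb, a glycoprotein of lysosome-loaded macrophages, read 6.33, 6.36 and 12.11, a range of 5.78 log2 units, against 5.54, 5.69 and 10.56 on the Ms4a8a arrays. Wfdc17, a secreted protein with a protease inhibitor fold, read 7.18, 6.17 and 11.83, and Mpeg1, the pore-forming protein perforin-2, read 8.58, 7.17 and 11.95. Gas6, the ligand of the TAM receptors that were near the floor here, read 4.31, 4.25 and 9.57. In these genes array 3 was far above the others.

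Enzymes of lipid mediators and detoxification formed part of the same set. Hpgds, the haematopoietic prostaglandin D synthase, read 4.40, 4.58 and 9.15, and Ltc4s, the leukotriene C4 synthase, read 7.01, 6.98 and 11.18. The carbonyl reductase gene Cbr2 read 4.78, 4.86 and 9.74 and the epoxide hydrolase gene Ephx1 read 5.88, 5.76 and 9.63. Surface and signalling genes of the set included Cd83 (6.82, 6.54 and 10.95), the sialic acid-binding lectin gene Cd33 (7.15, 6.29 and 9.95), the phosphatase gene Dusp6 (4.64, 5.39 and 9.12) and the antiproliferative gene Btg1 (5.37, 4.69 and 8.69). The 3 genes with array 3 lowest were Cfp, Id3 and Tfrc, the transferrin receptor that brings iron into dividing cells (10.20, 10.42 and 7.03). For all 30 genes the Ms4a8a array 3 lay on the same side of its own arrays 1 and 2.

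**Figure D3:**
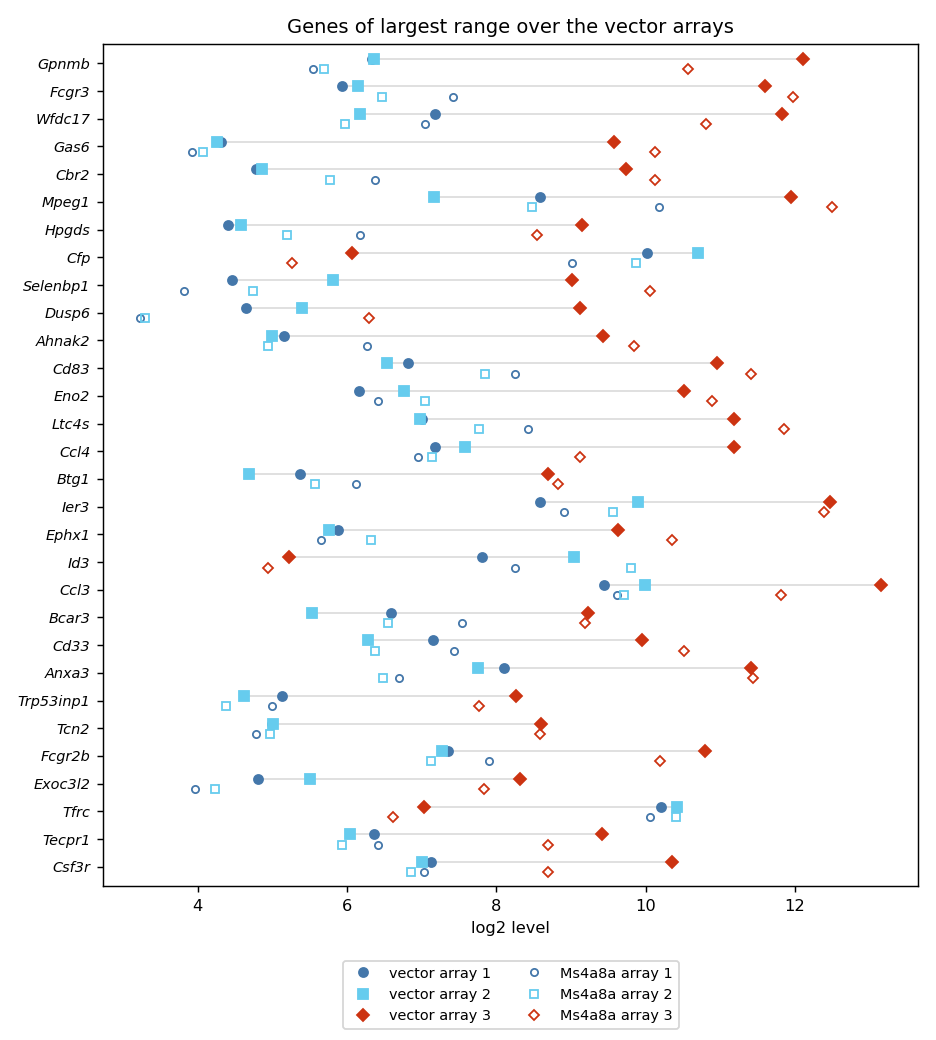
Log2 levels (horizontal axis) of the 30 genes of largest range over the vector arrays among those of mean percentile 50 or more (vertical axis). Filled symbols are the 3 vector arrays, joined by a grey line, and open symbols below them the 3 Ms4a8a arrays. Vector array 3, the filled red diamond, is at 1 end of every line, at the high end for 27 genes.

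Replication and mitosis genes were the list with the largest downward shift on vector array 3. Array 3 was the lowest of the vector arrays in 20 of the 21 genes measured for cell cycle and DNA replication, against 7730 of all 16387 genes, and the median gene of the list lay 1.30 log2 units below the mean of arrays 1 and 2. On arrays 1 and 2 alone 17 of the 21 were high, against 1571 of all 16387 genes. On all 3 arrays 7 were high, 33.3% against 7.60%. The helicase genes Mcm5 (11.04, 11.02 and 9.47) and Mcm6, the ribonucleotide reductase gene Rrm2 (12.33, 12.29 and 10.76), the mitotic kinase gene Plk1 (11.08, 11.11 and 9.41) and Ccne1, which encodes cyclin E1 (8.66, 8.63 and 6.51), each read at least 1 log2 unit lower on array 3. The exception was Ccnd1, the growth factor-regulated cyclin D1 (11.60, 11.71 and 11.85), whose array 3 value was the highest. Tyms, the thymidylate synthase, read 4.21, 4.23 and 3.05, near the floor, while the other 20 genes of the list were above it. In RNA from a whole culture, fewer cells of a kind and less RNA per cell cannot be told apart.

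Pattern recognition genes had the largest upward shift, with a median of 0.75 over 22 genes, followed by the amino acid and unfolded protein stress list with 0.57 and the glycolysis and hypoxia list with 0.52. Among the stress genes Trib3 (5.87, 6.27 and 8.72) and Ddit4, an inhibitor of mTOR signalling (8.63, 8.30 and 10.75), were highest on array 3. Among the hypoxia-responsive genes so were Ndrg1 (8.61, 9.10 and 11.37) and Adm, which encodes adrenomedullin (5.32, 6.90 and 8.21). The shift over all named genes was -0.04. In the Ms4a8a clone the corresponding shifts were 0.51 for pattern recognition, 0.24 for stress, 1.06 for glycolysis and hypoxia, and -1.97 for the cell cycle list.

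**Figure D4:**
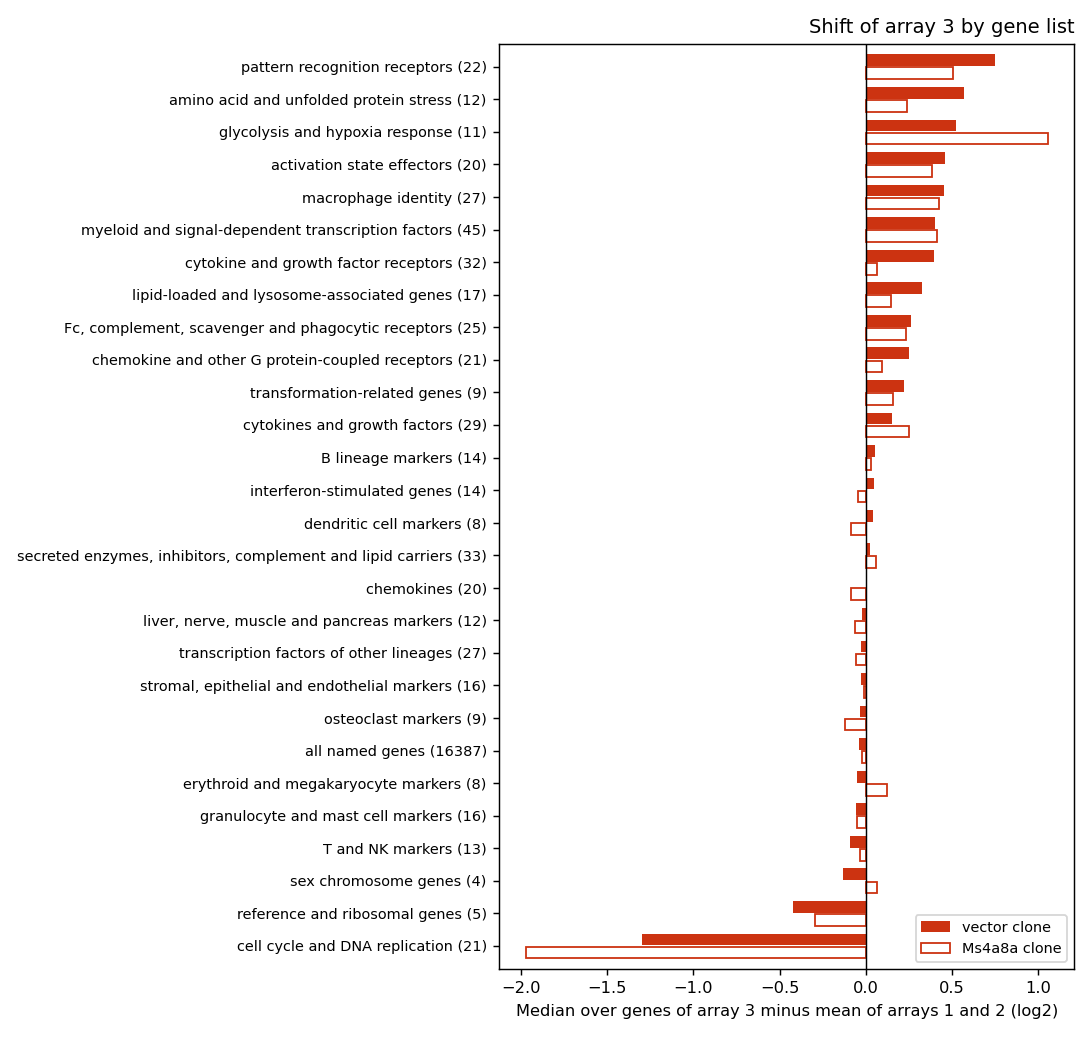
Median over the genes of each list (vertical axis, number measured in parentheses) of the log2 level on array 3 minus the mean of arrays 1 and 2 (horizontal axis). Filled bars are the vector clone and open bars the Ms4a8a clone. In the vector clone the cell cycle list lies at -1.30 and the pattern recognition list at 0.75.

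The marker lists of other cells had array 3 shifts near 0. The median shift was 0.05 for the 14 B-lineage markers, -0.09 for the 13 T and NK markers, -0.05 for the 16 granulocyte and mast cell markers and -0.03 for the 16 stromal, epithelial and endothelial markers. Most of these markers were near the floor on all 3 arrays, where only 0.793% of genes were variable. Shifts near 0 therefore tell little about such cells. The manufacturer's control probe sets were read as well. The 3′ minus 5′ signal of beta-actin was 0.17, 0.17 and 0.62 log2 units on vector arrays 1, 2 and 3, that of the transferrin receptor was 0.83, 0.86 and 1.39, and that of pyruvate carboxylase was 0.47, 0.50 and 0.91. That of Gapdh was -0.18, -0.17 and -0.12. A larger value means less signal from the 5′ end, as in more degraded RNA or shorter cDNA, and its part in the array 3 values was not tested. On the Ms4a8a arrays beta-actin gave 0.13, 0.17 and 0.45.

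Promoter letters were compared between classes of genes as a description. For 13080 of the 16387 named genes a promoter was matched by gene number. Among the 587 variable genes with array 3 low, 5.11% held the E2F core TTTNGCGC in the 250 bases before the start, against 1.79% of the 780 with array 3 high and 1.75% of all. The letters CCAAT stood in 46.2% of the first group, 34.9% of the second and 35.7% of all. The PU.1 core GAGGAAGT was found in 3.46% of the promoters of genes with array 3 high, in 1.36% of those with array 3 low and in 2.18% of all. For the AP-1 letters TGAGTCA the shares were 4.49%, 2.21% and 3.78%. For TTTGAA, the core of the cell cycle homology region, they were 10.1%, 12.6% and 11.6%, and for CACGTGAC, an E-box of lysosomal genes, 2.95%, 3.58% and 2.85%. The E2F and CCAAT letters thus stood before a larger share of the genes that read low on array 3, in which the printed Mcm6 and Cdk1 promoters belong.

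High and near-floor genes were compared in the same way. The promoters of 1016 high genes held a median of 17 CG steps in 250 bases, those of 4919 near-floor genes 6, and those of all genes 13. The median share of G or C was 59.6% for high genes, 54% for near-floor genes and 58% for all. The E2F core TTTNGCGC was found in 2.85% of the promoters of high genes, 0.935% of those of near-floor genes and 1.75% of all. The letters TATAAA were found in 7.78% of the promoters of high genes, 13.5% of those of near-floor genes and 9.01% of all. GAGGAAGT was found in 2.17% of the promoters of high genes and 1.75% of those near the floor. Both strands were searched in every case, and any overlap between motifs was left in.

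The baseline of the vector clone was set against the Ms4a8a clone for the 452 listed genes that were measured, with values as vector minus Ms4a8a. With limma over all 16387 genes no listed gene passed an adjusted p of 0.05, against 7 genes (0.0427%) of all, and 35 of the 452 listed genes had an unadjusted p under 0.05, against 524 of all 16387. With arrays of the same number as a block 16 listed genes passed, 11 higher and 5 lower in the vector clone, which is 3.54% against 0.909% of all genes. The listed genes were chosen with earlier results of these data known, so their larger shares in either model may reflect that choice. Slpi was the largest of the 11 after the scaffold gene Bank1. It read 9.60, 8.94 and 11.69 on the vector arrays, against 7.26, 7.40 and 9.72 on the Ms4a8a arrays, a difference of 1.94 (blocked SE 0.15, limma adjusted p = 0.00799 with the block and 1 without it). Number by number the vector array was higher each time, although the groups overlap.

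The other 9 genes higher in the vector clone under the block were Blnk, Ifih1, Sting1, Cfp, Tnfsf9, Cd80, Ccnd2, Ddit4 and Jun. Blnk read 5.25, 5.06 and 5.45 on the vector arrays, against 3.58, 3.83 and 3.95 on the Ms4a8a arrays, and the groups did not overlap (difference 1.47, blocked SE 0.10, limma adjusted p = 0.00611 with the block and 0.0893 without). The RNA sensor gene Ifih1 read 5.79, 5.44 and 6.38 on the vector arrays, against 4.24, 4.40 and 5.28 on the Ms4a8a arrays, a difference of 1.23 (blocked limma adjusted p = 0.0139). Sting1 differed by 0.82 at the same adjusted p, and neither passed without the block. Cfp (0.88) and Tnfsf9 (0.64) had blocked limma adjusted p-values of 0.0126 and 0.0307. Lower in the vector clone were Tfec, Clec7a, Sirpa, Cxcl16 and Pdgfa, a ligand of platelet-derived growth factor receptors, which read 6.70, 7.14 and 7.95 on the vector arrays, against 8.09, 8.25 and 8.84 on the Ms4a8a arrays (difference -1.13, blocked limma adjusted p = 0.0147). Of the 4 defining macrophage markers none passed in either model, and the blocked 95% interval of the difference, unadjusted, was -0.56 to -0.12 for Lyz2, -0.27 to 0.09 for Csf1r, -0.50 to -0.12 for Spi1 and -0.58 to -0.05 for Adgre1.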

How the data were processed

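RNA was turned into biotinylated cRNA for Affymetrix arrays, as the labels' protocols state. The authors' deposited table holds log2 values for 17370 probe sets on 6 arrays, of which 64 are control sets, 16387 have a gene symbol and 919 have none, which were not analysed here. The columns hold the same sorted values (largest difference 0), as after quantile normalisation, so no further scaling was applied. Background correction, summary method and software are not given in the sources used here, and no detection call was used. Probe sets are numbered by gene. Of the named ones 16358 numbers were found in RefSeq for GRCm38.p6, and 1773 older symbols were updated. All columns were used, and the number of arrays limits the precision.

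Means, SDs, percentiles and ranges over the 3 vector arrays were computed with pandas 2.3.3 in Python 3.11.15. They have no test, since each array is a single value. Of 505 listed genes in 27 lists 452 were measured, and the rest were not analysed here. Members and lists were chosen with earlier results of these data known. The named genes are list members, the 15 of highest mean level, and the 30 of largest range at a mean percentile of 50 or more, without entries that lack a gene name. The floor families were 37 olfactory (Olfr), 24 vomeronasal (Vmn1r), 3 taste (Tas2r), 37 keratin-associated (Krtap), 19 beta-defensin (Defb) and 6 gamma-crystallin (Cryg) genes, with 1 counted through an older symbol.

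The clones were compared with limma 3.58.1 (R 4.3.3), lmFit and eBayes on all 16387 genes, two-sided, with Benjamini-Hochberg adjustment, and the fit was tested on simulated data. The replicate number was an alternative block. The deviations of same-numbered arrays from their clone means correlated across genes (0.709, 0.809 and 0.865), and the pairing comes from the titles. Vector array 1 correlated at 0.713 with Ms4a8a array 2, and vector array 2 at 0.617 with Ms4a8a array 1. The correlations therefore do not single out a partner for vector array 1, and its pairing rests on the titles alone. The source names exchange numbers 1 and 2 in both clones alike, which gives the same pairs. P-values reflect only array-to-array spread.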

Additional observations from a re-analysis of the deposited data

How the results depend on the processing

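The number of listed genes called high, 65 of 452, was 107 at a percentile limit of 80 and 43 at 95, and 66 to 76 without each vector array in turn. The number near the floor, 183, was 92 with the 25th percentile of all named genes as the limit, and 183 to 206 without each vector array. The number of variable genes, 1727, was 266 at a range of 2 log2 units, and without each vector array in turn it ran from 35, without array 3, to 1537. The 121 variable listed genes became 6 without array 3. Leaving out array 3, an alternative chosen after seeing the data, moved 22 of 81 list counts by over 1.5 times, 20 of them counts of variable genes. The other 2 were the high genes of the cell cycle list (17 instead of 7) and the near-floor genes of the glycolysis list (1 instead of 0). Between the clones 7 genes of 16387 passed in limma, 149 with the replicate block, 47 with array weights and 1 among genes of mean percentile 50 or more, with 0 to 8 when each array was left out in turn (0 without Ms4a8a array 2 or either of vector arrays 1 and 3, 1 without vector array 2 or Ms4a8a array 1). Of the listed genes 0 passed, 16 with the replicate block and 6 with array weights, and 0 to 1 with an array left out, the 1 being Bank1 without Ms4a8a array 3. Signals near the floor limit bound what these arrays can show, and a low value may also be a poor probe set. The cause of each shift was not tested.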
